A study of Mus musculus with 6 samples.

Results

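The interferon-inducible p200 family was followed across freshly sorted cells of mouse hind-limb muscle through 8 genes, Ifi202b, Ifi203, Ifi204, Ifi205, Mnda, Mndal, Aim2 and Pyhin1. They are 8 of 24062 genes in the deposited table of normalised counts, and 7 of them were also analysed among the 4939 genes of a second deposited table, in CPM (reads of a gene scaled by library size). Ifi202b was not analysed on that scale. The family was chosen by the levels of Ifi203, Ifi204 and Ifi205, seen to differ between labelled groups, read here as the labelled cells of both mouse lines. The values that chose it were 157 CPM for Ifi203, 126 CPM for Ifi204 and 280 CPM for Ifi205 as means of Twist2-labelled cells, against 3.13, 2.61 and 1.98 CPM of the same genes in Pax7-labelled cells. That contrast is therefore only described.

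Proteins of the p200 (HIN-200) family carry HIN domains, which bind DNA, and most also carry a pyrin domain, through which they can join other proteins. Many of the genes are induced by interferon, whose signal reaches DNA through STAT and IRF factors at interferon-stimulated response elements. Aim2 senses DNA in the cytosol and assembles an inflammasome that activates caspase-1, and other members act in the nucleus or in the STING route to interferon. The family lies in 1 gene cluster and is best studied in macrophages and lymphocytes.

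Total RNA was sequenced from 6 sorted samples of adult C57BL/6 mice. Tw2pos (n = 2) and Tw2neg (n = 2) are tdTomato-positive and tdTomato-negative cells of Tw2-CreERT2/+;R26-tdTO+ mice, and Pax7pos (n = 1) and Pax7neg (n = 1) are the same fractions of Pax7-CreERT2/+;R26-tdTO+ mice. Animals of every group carried a tamoxifen-inducible Cre allele and the tdTomato reporter and received 3 tamoxifen treatments, given on alternate days 10 days before harvest. The labels mention RNA extraction for positive cells alone, so sample titles alone give the negative fractions, and no second marker that would restrict the negative fractions is named. Each Cre is driven from one gene (Twist2 or Pax7), so an unlabelled fraction holds all cells without recombination. Whether replicates came from different animals is not said in the labels, so the p-values cover the spread between the samples at hand, possibly a technical one.

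The 4 Twist2 libraries held 10902318 to 13205751 reads in genes. Of 16 fibro-adipogenic and mesenchymal markers, 12 passed as higher in Tw2pos than in Tw2neg and none as lower, and all 7 tendon markers passed as higher. Their summed levels were 143457 and 163802 CPM in Tw2pos and 37404 and 23113 CPM in Tw2neg for the mesenchymal list. The satellite cell list summed to 7567 CPM in Pax7pos and to 682 CPM in Pax7neg. All 15 macrophage markers with a row, all 12 lymphocyte markers and all 10 neutrophil markers passed as lower in Tw2pos, and none of them was without reads in both Tw2pos libraries. In this sorted bulk RNA, fewer cells of a type and less RNA per cell cannot be told apart.

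The members lie within 682 kb of chromosome 1 (GRCm38.p6; GENCODE and RefSeq), all as protein-coding genes. Aim2 (chr1:173349547-173466040, + strand) stands at one end, followed by Pyhin1 (chr1:173630859-173647928, + strand). Ifi204 (chr1:173747293-173767069), Mndal (chr1:173857215-173880382), Mnda (chr1:173896339-173913087), Ifi203 (chr1:173920400-173942866), Ifi202b (chr1:173962569-173982844) and Ifi205 (chr1:174011998-174031755) follow in that order on the - strand. RefSeq calls the gene listed as Mnda by the name Ifi211 and the gene listed as Pyhin1 by the name Ifi209. The submitters' processing notes name GRCm38 and mm10 as builds.

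Promoter windows of 300 bases, running across the RefSeq start site (GRCm38.p6), were taken for 7 of the 8 members, all but Ifi204. They are shown for the genes that differed most between the sorted fractions and for the pair with the most similar promoters, each 5′ to 3′ on the gene's own strand. Capitals mark the core of the interferon-stimulated response element, searched on both strands as the letters AAANNGAAA with a G before them; in Pyhin1 they mark AAANNGAAA alone, a shorter motif that lies within the first.
Ifi205 (chr1:174031706-174032005, - strand): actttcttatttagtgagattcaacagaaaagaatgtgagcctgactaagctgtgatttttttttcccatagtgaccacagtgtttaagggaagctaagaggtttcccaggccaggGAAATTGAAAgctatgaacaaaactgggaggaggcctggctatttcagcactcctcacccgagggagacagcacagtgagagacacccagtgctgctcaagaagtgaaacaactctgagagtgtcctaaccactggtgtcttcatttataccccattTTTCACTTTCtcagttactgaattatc
Mnda (chr1:173912997-173913296, - strand): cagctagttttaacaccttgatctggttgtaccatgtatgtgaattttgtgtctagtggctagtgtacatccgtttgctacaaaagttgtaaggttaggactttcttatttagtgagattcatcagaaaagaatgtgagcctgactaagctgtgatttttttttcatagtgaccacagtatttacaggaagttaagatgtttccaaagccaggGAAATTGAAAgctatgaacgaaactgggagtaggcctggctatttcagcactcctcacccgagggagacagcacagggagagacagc
Ifi203, second start site (chr1:173942443-173942742, - strand): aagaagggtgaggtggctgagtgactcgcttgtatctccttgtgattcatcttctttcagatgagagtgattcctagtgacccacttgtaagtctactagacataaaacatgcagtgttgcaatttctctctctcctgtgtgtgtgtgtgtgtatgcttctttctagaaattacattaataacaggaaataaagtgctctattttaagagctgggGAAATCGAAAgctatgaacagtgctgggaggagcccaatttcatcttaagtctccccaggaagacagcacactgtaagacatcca
Mndal, first start site (chr1:173880138-173880437, - strand): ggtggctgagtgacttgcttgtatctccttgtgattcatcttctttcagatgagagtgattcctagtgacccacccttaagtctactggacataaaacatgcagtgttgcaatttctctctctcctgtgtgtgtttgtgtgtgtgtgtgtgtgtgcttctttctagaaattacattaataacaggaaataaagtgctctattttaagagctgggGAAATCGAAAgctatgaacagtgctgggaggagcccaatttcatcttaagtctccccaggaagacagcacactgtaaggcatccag
Pyhin1 (chr1:173630609-173630908, + strand): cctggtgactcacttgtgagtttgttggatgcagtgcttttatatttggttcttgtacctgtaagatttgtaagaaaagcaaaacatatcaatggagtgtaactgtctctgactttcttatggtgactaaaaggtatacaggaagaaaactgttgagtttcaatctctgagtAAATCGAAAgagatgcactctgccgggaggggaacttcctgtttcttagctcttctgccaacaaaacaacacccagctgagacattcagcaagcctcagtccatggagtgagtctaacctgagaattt
Aim2 (chr1:173420354-173420653, + strand): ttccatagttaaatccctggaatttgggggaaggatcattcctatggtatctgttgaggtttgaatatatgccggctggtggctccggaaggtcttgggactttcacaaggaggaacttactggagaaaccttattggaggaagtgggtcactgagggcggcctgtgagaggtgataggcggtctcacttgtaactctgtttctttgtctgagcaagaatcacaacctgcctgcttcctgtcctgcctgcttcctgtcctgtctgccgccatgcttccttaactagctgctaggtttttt

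The full core was present in the promoters of 4 of the 7 members with an entry (Mndal, Mnda, Ifi203 and Ifi205), and in those of 3.99% of 27025 mouse genes, or 3.44% of 32851 promoters of the same length. The shorter AAANNGAAA added Pyhin1, giving 5 of 7 members, and occurred in promoters of 12.1% of genes, or 10.6% of all promoters. The match lay 37 to 28 bases before the start site in Mnda, 36 to 27 in Mndal, 35 to 26 in Ifi203 and 134 to 125 in Ifi205, and Ifi205 had another on the opposite strand after the start site. Mndal had another on the opposite strand, 54 to 45 bases before its second start site. In Ifi203 it was found at the second of its start sites only. Neither motif was found in the windows of Aim2 and Ifi202b, which says nothing of other positions or of a factor. Outside the members, the full core was present for all 3 other p200 loci with a promoter entry, AI607873, Pydc3 and Pydc4. Of these, AI607873 passed as higher in Tw2pos than in Tw2neg (log2 fold change 1.34). Pydc3 (-5.30) and Pydc4 (-4.66) passed as lower. The relation of the motif to these differences was not tested. The Ifi203 and Mndal windows share an identical stretch of 139 bases that holds the motif. The longest stretch shared by the Ifi205 and Mnda windows has 45 bases and does not hold the motif. Their upstream motifs have the same letters, and the bases directly on either side of them are also identical in a shorter shared stretch. The motif letters were chosen after the promoters had been seen.

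In Twist2-labelled cells the family was split. Ifi205, Ifi204 and Mnda were higher than in unlabelled cells of the same line, Aim2 and Pyhin1 were far lower, and Ifi203, Mndal and Ifi202b did not pass the test. The Tw2pos levels of Ifi203, Ifi204 and Ifi205 are among the values that chose the family, so their p-values are not independent of that choice and are given as a description. The comparison used limma on log2 of the normalised count plus 1, adjusted over 14155 genes by the Benjamini-Hochberg method with a threshold of 0.05. Of the 8 members, 5 passed, 3 as higher and 2 as lower. Over all genes tested 38.6% passed, 18.7% as higher and 20.0% as lower, so a count of this kind is frequent in these libraries. The median log2 fold change was 0.30 over the 8 members and -0.04 over all genes.

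Ifi205, whose product is a nuclear p200 protein, had 2811 and 4126 normalised counts in Tw2pos and 1110 and 1198 in Tw2neg. Both Tw2pos libraries lay above both Tw2neg libraries. The log2 fold change was 1.56 (SE 0.24, limma adjusted p = 0.0051). Ifi204, the mouse gene often compared with human IFI16 and linked to DNA sensing through STING, had 1393 and 1738 normalised counts in Tw2pos and 620 and 640 in Tw2neg. Again the groups did not overlap, and the Tw2neg libraries were close together. Its log2 fold change was 1.30 (SE 0.19, limma adjusted p = 0.0045). Mnda, named after the human myeloid cell nuclear differentiation antigen, had 838 and 1281 normalised counts in Tw2pos and 394 and 403 in Tw2neg. The lower Tw2pos library was still above both Tw2neg libraries, and the log2 fold change was 1.38 (SE 0.24, limma adjusted p = 0.0085). Without Tw2pos replicate 2 the adjusted p of Mnda was 0.0699 with a log2 fold change of 1.07.

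These rows are not independent measures, because the transcripts are near copies in places. Of the 50-base stretches of the longest coding Mnda transcript, 72.8% also occur in another gene and 44.7% occur in Ifi205. For Ifi205 itself, 49.5% of its stretches occur in Mnda, and for Ifi204 the share with Mnda was 23.2%. The share with any other gene was 30.2% for Ifi204, 27.2% for Mndal, 35.1% for Pyhin1 and 10.7% for Ifi203, whereas it was 0.789% for Aim2 and 0% for Ifi202b. How the counting treated reads that fit several genes, and whether it used strand, was not stated by any source used here, so the levels of the related members are uncertain.

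Ifi203, Mndal and Ifi202b showed smaller or less even differences. Ifi203 had 1854 and 2029 normalised counts in Tw2pos and 1341 and 1567 in Tw2neg. The groups did not overlap, but the log2 fold change of 0.42 (SE 0.18) did not pass, with a limma adjusted p of 0.119. It was -0.03 when libraries were scaled to their totals, which moved the median of all genes to -0.50, and 0.53 with an adjusted p of 0.0416 without Tw2neg replicate 2. Mndal, an MNDA-like gene, had 600 and 786 normalised counts in Tw2pos and 938 and 1271 in Tw2neg. It was lower in both Tw2pos libraries, and the log2 fold change was -0.67 (SE 0.24, limma adjusted p = 0.0685). It passed when libraries were scaled to their totals (log2 fold change -1.12, limma adjusted p = 0.0080) and without Tw2neg replicate 1 (log2 fold change -0.89, limma adjusted p = 0.0261).

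Ifi202b, whose protein lacks a pyrin domain and is known as an inhibitor of Aim2, had 119 and 110 normalised counts in Tw2pos and 172 and 59.2 in Tw2neg. It was the member whose groups overlapped, since the Tw2pos values lay between the Tw2neg values. The log2 fold change was 0.17 (SE 0.51, limma adjusted p = 0.808). Its value was 0.94 (limma adjusted p = 0.0400) without Tw2neg replicate 1 and -0.59 without Tw2neg replicate 2, so each Tw2neg library decides its direction. Over all 8 members, the groups did not overlap for 7, and over all genes tested they did not overlap for 76.3%.

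Aim2 and Pyhin1 were nearly missing from Twist2-labelled cells. Aim2 had 11.5 and 13.3 normalised counts in Tw2pos, which rest on 9 and 11 reads, and 263 and 463 normalised counts in Tw2neg. The log2 fold change was -4.71 (SE 0.37, limma adjusted p = 0.00078). Pyhin1, whose human counterpart is the nuclear protein IFIX, had 8.92 and 12.1 normalised counts in Tw2pos from 7 and 10 reads, and 480 and 1020 normalised counts in Tw2neg. Its log2 fold change was -5.94 (SE 0.42, limma adjusted p = 0.00058). For both genes every Tw2neg library was many times above every Tw2pos library. Tw2neg replicate 2 was the higher one for both.

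Markers of leukocytes, and of endothelial cells, moved with these values. The lymphocyte list summed to 9.89 and 20.1 CPM in Tw2pos and to 652 and 1411 CPM in Tw2neg, where replicate 2 was again the higher. The macrophage list summed to 231 and 314 CPM in Tw2pos and to 3773 and 4649 CPM in Tw2neg. The neutrophil list summed to 44.6 and 30.9 CPM in Tw2pos and to 6119 and 5541 CPM in Tw2neg. Endothelial markers were lower as well, 8 of 10 passing, with sums of 716 and 491 CPM in Tw2pos and 3387 and 1190 CPM in Tw2neg, where replicate 1 was the higher. Ifi205, Ifi204 and Mnda ran opposite to the leukocyte lists within the Twist2 line and in the direction of the mesenchymal list. The part of these lists in the p200 differences was not tested.

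**Figure D1:**
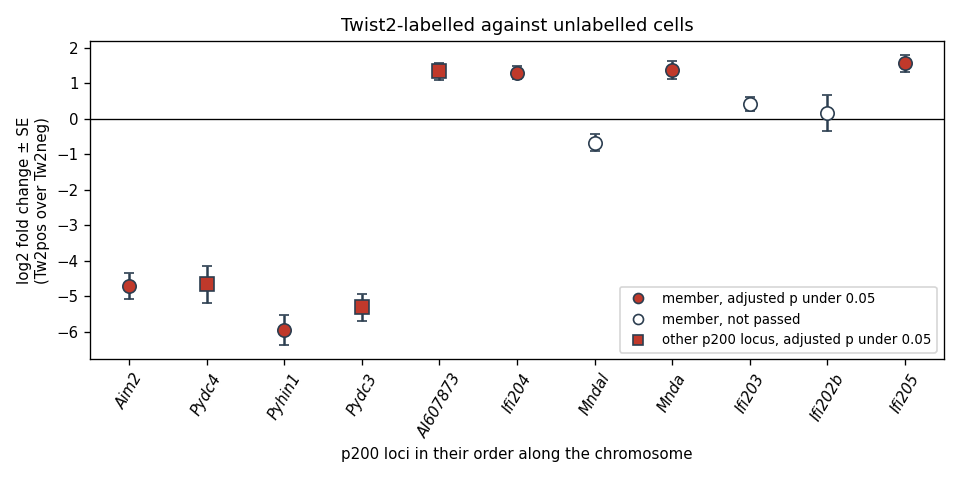
Log2 fold change of normalised counts, Tw2pos over Tw2neg, for 8 members (circles) and 3 other p200 loci (squares) in their order along the chromosome, with bars of 1 SE from limma over 2 libraries per group. Filled symbols passed an adjusted p of 0.05; the genes from Aim2 to Pydc3 lie between -5.94 and -4.66, and AI607873, Ifi204, Mnda and Ifi205 between 1.30 and 1.56.

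Set out in chromosomal order, the 4 genes at the Aim2 end of the cluster were all lower in Tw2pos. They are Aim2, Pydc4, Pyhin1 and Pydc3. The loci AI607873, Ifi204, Mnda and Ifi205 passed as higher, with Mndal, Ifi203 and Ifi202b standing among them without a call. Of 18 listed names for other p200 loci, 5 had a row in the normalised counts, and 4 of these were tested. The names include RefSeq names of some members and of loci given here, so they are not 18 separate loci. AI607873 (Ifi207 in RefSeq) had 4270 and 5945 normalised counts in Tw2pos and 2120 and 1858 in Tw2neg, and its log2 fold change was 1.34 (limma adjusted p = 0.0083, and 0.0739 without Tw2pos replicate 2). Pydc3 (Ifi208 in RefSeq) had 3.82 and 3.62 normalised counts in Tw2pos and 161 and 213 in Tw2neg. Pydc4 (Ifi213 in RefSeq) had 5.10 and 2.41 in Tw2pos and 87.0 and 151 in Tw2neg. BC094916, for which no RefSeq position was matched, had no read in Tw2pos and 46 and 95 reads in Tw2neg. These 3 loci passed as lower. The fifth row, 9130409I23Rik, was listed as a p200 locus in error and was at 0 in all 4 libraries.

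Per kilobase of the longest coding transcript, Ifi205 was the most abundant member in both fractions. In Tw2pos the mean normalised count per kb was 2150 for Ifi205, 682 for Ifi204, 593 for Mnda, 517 for Ifi203, 342 for Mndal, 67.3 for Ifi202b, 4.36 for Aim2 and 3.05 for Pyhin1. The libraries of Ifi204 and Mnda, and of Mnda and Ifi203, overlapped in that order, so the ranges do not separate these neighbours. Within each Tw2pos library Ifi204 lay above Mnda, while Mnda and Ifi203 changed order between the libraries. In Tw2neg the order per kb was Ifi205 (715), Mndal (545), Ifi203 (387), Ifi204 (274), Mnda (223), Pyhin1 (218), Aim2 (128) and Ifi202b (68.2). There the libraries of Mnda and Pyhin1, Pyhin1 and Aim2, and Aim2 and Ifi202b overlapped. Within each Tw2neg library Pyhin1 lay above Aim2. Mnda and Pyhin1, and Aim2 and Ifi202b, changed order between the libraries. In the Pax7neg library the CPM per kb was 234 for Ifi205, 114 for Mnda, 98.4 for Ifi204, 89.6 for Ifi203, 75.9 for Mndal, 24.7 for Pyhin1 and 10.1 for Aim2. In Pax7pos it was 0.184 to 1.44 CPM per kb over the same 7 genes. Aim2 and Pyhin1 together made up 0.267% and 0.251% of the normalised counts of the 8 members in Tw2pos, against 13.96% and 22.4% in Tw2neg. Ifi204, Ifi205 and Mnda together made up 66.0% and 70.8% in Tw2pos, against 39.9% and 33.8% in Tw2neg. Both sets were grouped by their calls between Tw2pos and Tw2neg. The direction of these shares follows from that grouping, and they are only described.

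**Figure D2:**
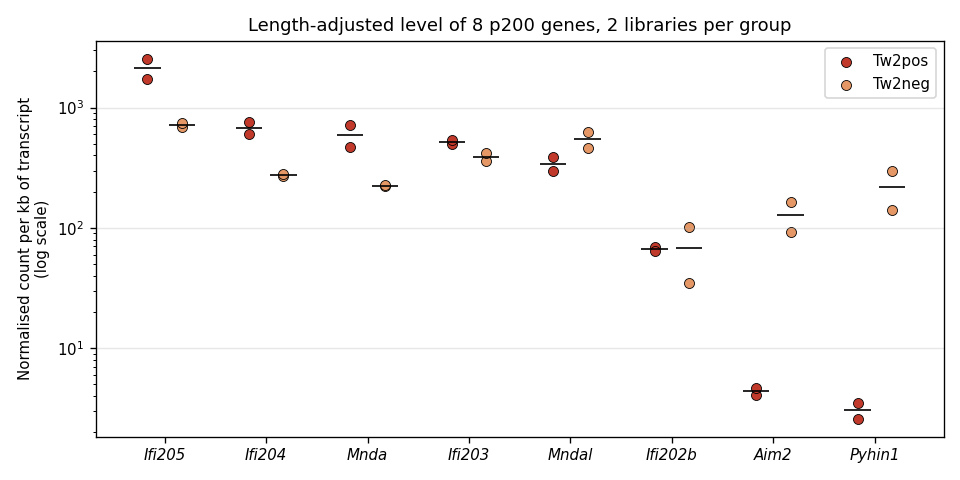
Normalised count per kb of transcript (log scale) of 8 members in 2 Tw2pos and 2 Tw2neg libraries, with points for libraries and lines for means. Ifi205 leads in both groups, with means of 2150 in Tw2pos and 715 in Tw2neg, while Aim2 and Pyhin1 are at 4.36 and 3.05 in Tw2pos.

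Between the labelled cells of the lines, 5 members were much higher in Twist2-labelled cells and 2 were near the bottom of the scale in both. This is the contrast that chose the family, with 1 Pax7pos library and no test. The level of Ifi205 was 227 and 333 CPM in Tw2pos, against 1.98 CPM in the Pax7pos library, where it had 19 reads. The ratio was 141, with a 95% Poisson interval of 90.4 to 234. The interval covers the counting error of Pax7pos alone. Mnda had 67.7 and 103 CPM in Tw2pos and 1.25 CPM in Pax7pos (ratio 68.3, interval 39.1 to 132). Ifi203 had 150 and 164 CPM in Tw2pos and 3.13 CPM in Pax7pos (ratio 50.04, interval 35.1 to 74.2). For all 3 genes both Tw2pos libraries lay far above the Pax7pos library.

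The ratio for Ifi204 was 48.4 (interval 32.8 to 74.8), from 113 and 140 CPM in Tw2pos and 2.61 CPM in Pax7pos. Mndal had the smallest ratio of the 5, with 48.5 and 63.5 CPM in Tw2pos and 2.92 CPM in Pax7pos (ratio 19.2, interval 13.3 to 28.8). Aim2 had 0.927 and 1.07 CPM in Tw2pos against 0.522 CPM in the Pax7pos library (5 reads), and the interval of its ratio (0.82 to 5.89) spans 1. Pyhin1 had 0.721 and 0.974 CPM in Tw2pos and 1.25 CPM in Pax7pos, and the interval of its ratio (0.387 to 1.31) also spans 1. A difference of Aim2 or Pyhin1 between labelled cells was not detectable at this depth. On the scale of log2 of CPM plus 10, 5 of 7 members had a difference of at least 2, as did 13.6% of the 4939 genes (9.39% as higher). That table was itself selected: each gene differs 2-fold or more from Tw2neg in some comparison and has at least 10 CPM in 3 libraries. The macrophage list summed to 147 CPM and the lymphocyte list to 8.25 CPM in Pax7pos, where Cd8a was at 0, below the Tw2pos sums.

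**Figure D3:**
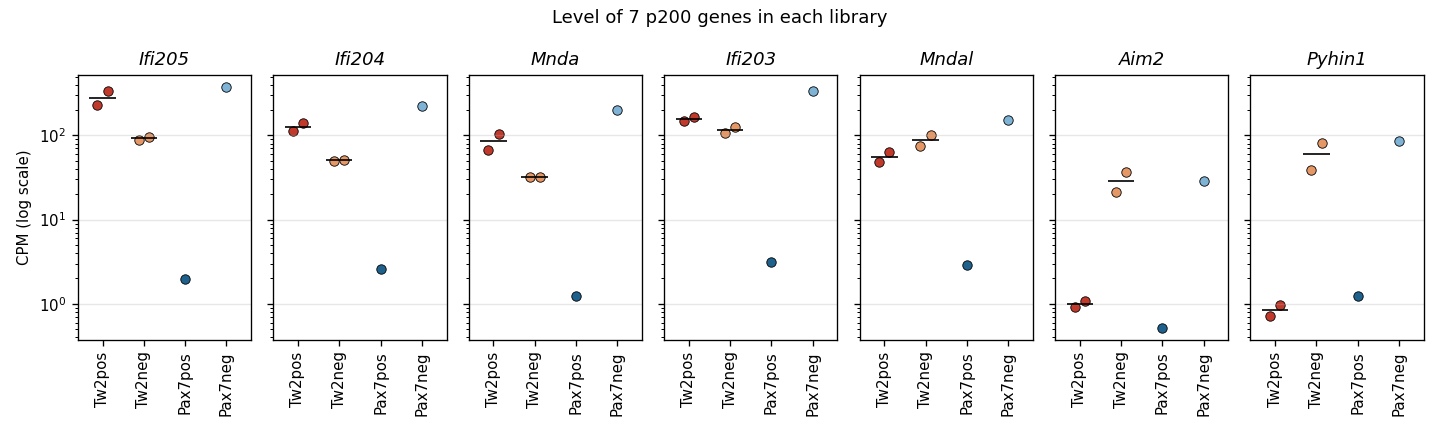
CPM on a log scale of 7 members in each of 6 libraries (2 Tw2pos, 2 Tw2neg, 1 Pax7pos, 1 Pax7neg), with points for libraries and lines for group means. Pax7pos is the lowest library for the first 5 genes, at 1.25 to 3.13 CPM, and for Aim2 and Pyhin1 both labelled fractions lie near 1 CPM.

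Within the Pax7 line the family was low in labelled cells throughout. Ifi205 had 1.98 CPM in Pax7pos and 378 CPM in Pax7neg. Ifi203 had 3.13 CPM in Pax7pos and 336.5 CPM in Pax7neg, and Ifi204 had 2.61 CPM in Pax7pos and 226 CPM in Pax7neg. For Mnda the values were 1.25 CPM in Pax7pos and 203 CPM in Pax7neg, and for Mndal they were 2.92 CPM in Pax7pos and 154 CPM in Pax7neg. In Pax7pos every member was lower than in Pax7neg, also Pyhin1 (1.25 CPM in Pax7pos, 84.9 CPM in Pax7neg) and Aim2 (0.522 CPM in Pax7pos, 28.8 CPM in Pax7neg). The log2 difference of CPM plus 10 was -5.02 for Ifi205, -4.72 for Ifi203, -4.24 for Mnda, -4.23 for Ifi204, -3.66 for Mndal, -3.08 for Pyhin1 and -1.88 for Aim2. It reached a size of 2 for 6 of 7 members, all lower, and for 18.4% of all genes in the table (14.6% as lower). There is 1 library in each group and the Pax7pos library is the one that chose the family, so this too is a description. The 7 members summed to 607 and 807 CPM in Tw2pos, 413 and 525 CPM in Tw2neg, 13.7 CPM in Pax7pos and 1410 CPM in Pax7neg.

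Between the unlabelled cells of the lines, Mnda was the only member to pass, as lower in Tw2neg than in Pax7neg. Its call ended in 4 of the alternatives that kept all 6 libraries. It held only in the remaining one, a mean of at least 50 CPM (limma adjusted p = 0.0422). Pax7neg is 1 library, so its own spread was not measured. The fit was limma on log2 of CPM plus 1 over 6 libraries and 4790 genes, where the lone Pax7neg library is assumed to vary like the Twist2 libraries. Mnda had 31.7 and 32.2 CPM in Tw2neg and 203 CPM in Pax7neg, a log2 fold change of -2.63 (limma SE 0.36, adjusted p = 0.0483). The Tw2neg libraries were nearly equal. Thus 1 of 7 members passed, beside 0.230% of the genes tested, or 11 genes. The genes with CPM had been selected for a 2-fold or larger difference from Tw2neg in some comparison, Pax7neg against Tw2neg included. The p-values and shares of this contrast are therefore not independent of that selection and do not describe all genes.

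The remaining members of the contrast did not pass. Ifi204 had 49.8 and 51.1 CPM in Tw2neg and 226 CPM in Pax7neg (log2 fold change -2.14, SE 0.32, limma adjusted p = 0.0512). Ifi205 had 89.1 and 95.8 CPM in Tw2neg and 378 CPM in Pax7neg (log2 fold change -2.02, SE 0.34, limma adjusted p = 0.0738). Ifi203 had 108 and 125 CPM in Tw2neg and 336.5 CPM in Pax7neg (log2 fold change -1.53, SE 0.31, limma adjusted p = 0.103). All 3 were lower in both Tw2neg libraries than in Pax7neg. For Mndal, with 75.3 and 102 CPM in Tw2neg and 154 CPM in Pax7neg, the log2 fold change was -0.81 (SE 0.35). Pyhin1 had 38.5 and 81.6 CPM in Tw2neg and 84.9 CPM in Pax7neg (log2 fold change -0.59, SE 0.53). Aim2 had 21.1 and 37.0 CPM in Tw2neg and 28.8 CPM in Pax7neg (log2 fold change -0.04, SE 0.53), so that Pax7neg lay between the Tw2neg libraries. Both Tw2neg libraries were below Pax7neg for 6 of 7 members and for 37.7% of the genes tested, which had been selected as stated above.

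The call for Mnda ended with a pseudocount of 10 (limma adjusted p = 0.0951), without the filter on level (limma adjusted p = 0.05002), under quantile normalisation (limma adjusted p = 0.0690) and without the variance trend (limma adjusted p = 0.0833). With 1 Twist2 library left out, the log2 fold change was -2.16 to -2.12 for Ifi204, -2.07 to -1.97 for Ifi205 and -1.64 to -1.42 for Ifi203. Fits of that kind take their spread from a single pair, and without a Tw2neg library they set 1 library against 1, so their p-values are not read as calls. Beside these values, the mesenchymal list summed to 37402 and 23111 CPM in Tw2neg and to 76170 CPM in Pax7neg, all 15 of its measured genes being lower in Tw2neg. The lymphocyte list summed to 652 and 1411 CPM in Tw2neg and to 1128 CPM in Pax7neg. The macrophage list summed to 3757 and 4635 CPM in Tw2neg and to 4708 CPM in Pax7neg. The neutrophil list summed to 6078 and 5505 CPM in Tw2neg and to 2559 CPM in Pax7neg, all 9 measured genes being higher in Tw2neg. The tendon list was lower in Tw2neg for all 7 genes (5837 and 2519 CPM, against 8881 CPM in Pax7neg). Endothelial markers summed to 3387 and 1190 CPM in Tw2neg and to 1233 CPM in Pax7neg, and 2 of 9 measured satellite cell markers passed as higher in Tw2neg. The part of these lists was not tested. Twist2-labelled cells are removed from Tw2neg and Pax7-labelled cells from Pax7neg, so line and composition cannot be told apart.

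**Figure D4:**
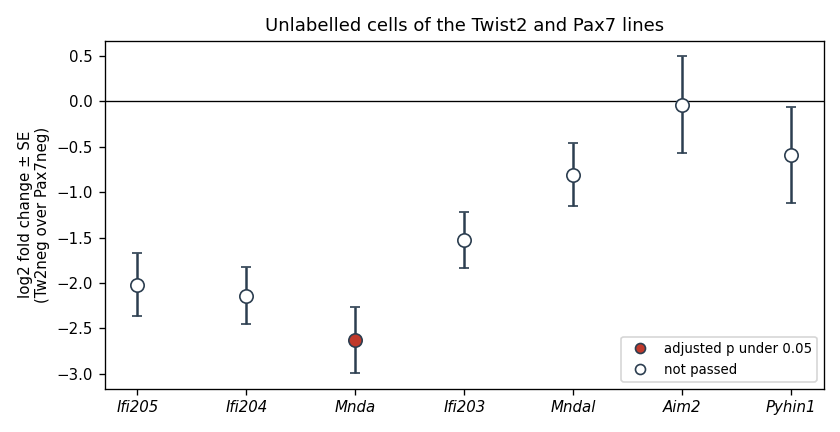
Log2 fold change of CPM, Tw2neg (2 libraries) over Pax7neg (1 library), for 7 members, with bars of 1 SE from limma over 6 libraries. Mnda (-2.63) is the only filled point, past an adjusted p of 0.05, and Aim2 lies at -0.04.

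Among other genes of the pathway, calls in Twist2-labelled cells were more often lower than higher. Of 18 genes of DNA sensing, the inflammasome and the STING route, 13 passed as lower, none as higher and 5 did not pass, with a median log2 fold change of -0.84. Over all genes tested 20.0% passed as lower and 18.7% as higher, with a median of -0.04. Il1b, the cytokine that caspase-1 matures, had 85.4 and 151 normalised counts in Tw2pos and 3502 and 6047 in Tw2neg (log2 fold change -5.33, limma adjusted p = 0.00053). Tmem173, the gene of STING, had 2035 and 2007 normalised counts in Tw2pos and 2054 and 1517 in Tw2neg. Casp4, which encodes caspase-11, had 650 and 786 normalised counts in Tw2pos and 703 and 718 in Tw2neg. The Twist2 groups overlapped for both genes, with log2 fold changes of 0.20 (limma adjusted p = 0.499) and 0.01 (limma adjusted p = 0.973).

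Of 19 tested genes of interferon receptors and signalling, of 20 listed, 8 passed as lower, 1 as higher and 10 did not pass, beside 20.0% of all genes as lower and 18.7% as higher. The median log2 fold change was -0.65. The higher one was Socs1, a feedback inhibitor of JAK signalling, with 562 and 529 normalised counts in Tw2pos and 299 and 352 in Tw2neg (log2 fold change 0.75, limma adjusted p = 0.0264). Its call ended when libraries were scaled to their totals (log2 fold change 0.30) without the variance trend, and without either Tw2pos library. Ifng, the gene of type II interferon, had 5.10 and 4.82 normalised counts in Tw2pos and 52.0 and 104 in Tw2neg (log2 fold change -3.65, limma adjusted p = 0.0037). Socs3, a related inhibitor, had a log2 fold change of 1.04 (limma adjusted p = 0.0743). It passed under DESeq2 (adjusted p = 0.0023), without the variance trend (limma adjusted p = 0.0443), in the 6-library fit (0.0352) and when Tw2neg replicate 1 was left out (0.0304), while quantile normalisation gave a log2 fold change of 0.19 (limma adjusted p = 0.676) and library totals 0.59. Jak1, a receptor-associated kinase, and Irf1, an interferon-induced factor, had values of -0.40 (limma adjusted p = 0.287) and -0.03 (limma adjusted p = 0.948). Jak1 passed with library totals (-0.85, limma adjusted p = 0.0314) and under quantile normalisation (-0.91, limma adjusted p = 0.0448), where Irf1 was at -0.70; with library totals Irf1 was at -0.48.

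Of 42 interferon-stimulated genes, 29 passed as lower, 1 as higher and 12 did not pass, beside the same 20.0% and 18.7% of all genes. The median log2 fold change was -1.18. Oas3, a sensor enzyme for double-stranded RNA, had 5.10 and 4.82 normalised counts in Tw2pos and 189 and 243 in Tw2neg (log2 fold change -5.18, limma adjusted p = 0.00054). Samhd1, a dNTP hydrolase, had a log2 fold change of -1.43 (limma adjusted p = 0.0076). The higher one, Ifi27, had 1400 and 1724 normalised counts in Tw2pos and 1091 and 840 in Tw2neg (log2 fold change 0.70, limma adjusted p = 0.0468), a call that ended under edgeR (adjusted p = 0.0506), with library totals (log2 fold change 0.25), with no filter on level, with no variance trend, in the 6-library fit and without any 1 library other than Tw2neg replicate 1. Ifitm3 and Ifitm2, which encode antiviral membrane proteins, had log2 fold changes of 0.34 and 0.33 and did not pass. Ifi205, Ifi204 and Mnda, at 1.30 to 1.56, had larger positive values than any passing gene of these lists. The Tw2pos levels of Ifi204 and Ifi205 are among the values that chose the family, and Mnda shares sequence with Ifi205. That order is therefore only described. The lists fell beside leukocyte marker lists that were lower as well, and the part of the leukocyte lists was not tested. In Tw2neg against Pax7neg no gene of the 3 lists passed. In value, 27 of 28 tested interferon-stimulated genes were lower in Tw2neg. Their median log2 fold change was -0.69, beside -0.07 over the 4790 genes tested. That list summed to 2213 and 2312 CPM in Tw2neg and to 3658 CPM in the 1 Pax7neg library. Of the other lists, 5 of 9 DNA sensing genes and 8 of 12 signalling genes were lower (medians -0.34 and -0.12).

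**Figure D5:**
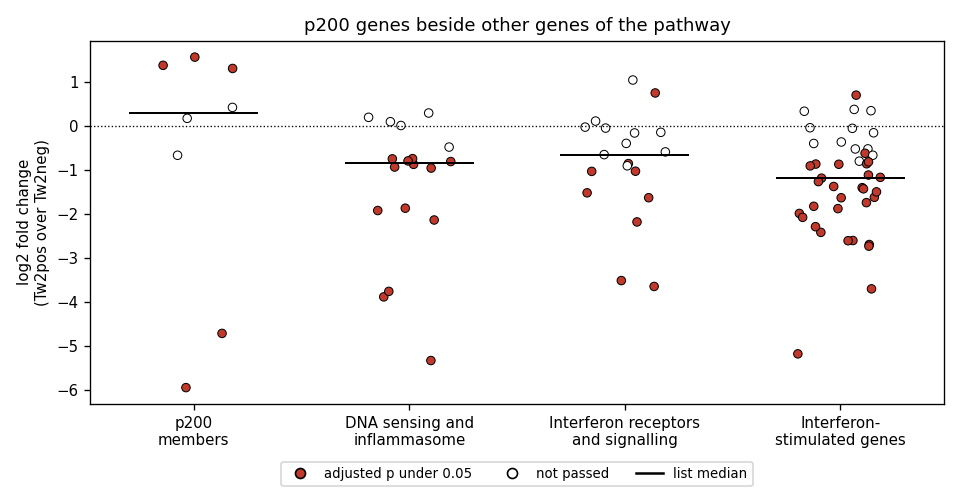
Log2 fold change of normalised counts, Tw2pos over Tw2neg, for 8 members, 18 genes of DNA sensing, 19 of interferon signalling and 42 interferon-stimulated genes. Points are genes, filled where limma's adjusted p was under 0.05, and lines are medians (0.30 for the members, then -0.84, -0.65 and -1.18).

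Across 6 libraries, the members fell into profiles that can be described by their nearest genes. Likeness was the root mean square difference of centred log2 of CPM plus 1 over the 6 libraries, among 4783 genes that are not members. Among members, Ifi204 and Mnda were closest (0.197), Aim2 and Pyhin1 differed by 0.608, and Ifi205 and Pyhin1 were farthest apart (3.00). Of the 50-base stretches of Ifi204, 23.2% also occur in Mnda. The part of shared reads in their likeness was not tested. Cfb, the gene of complement factor B, was nearest to Ifi204 (0.215) and to Mnda (0.381) and was among the nearest 3 of Ifi203. Its level was 167 and 216 CPM in Tw2pos, 72.2 and 73.0 CPM in Tw2neg, 3.55 CPM in Pax7pos and 224 CPM in Pax7neg. Ly6a, the gene of the surface protein Sca-1, was nearest to Ifi203 (0.397).

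The nearest gene to Ifi205 was another p200 locus, AI607873 (0.363), followed by Clec3b, which encodes tetranectin. For Mndal the nearest were Acp5, an acid phosphatase known from osteoclasts, Itgb3, an integrin chain, and Tnfaip8. For Pyhin1 they were Lck, a T cell kinase (0.172), Pax5, a B cell transcription factor, and Irg1. For Aim2 they were Fam169b (0.0653), Grap and Cd48, a surface protein of leukocytes. Lck had 2.06 and 2.63 CPM in Tw2pos, 63.4 and 124 CPM in Tw2neg, 1.99 CPM in Pax7pos and 120 CPM in Pax7neg. Lck and Pax5 are 2 of the 12 lymphocyte markers given above, and Ly6a and Clec3b are among the 16 mesenchymal markers. Irg1, Fam169b, Grap and Cd48 are in none of the marker lists. These distances rest on 6 libraries in 4 groups and on values that share library and depth.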

How the data were processed

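RNA of 6 sorted samples was sequenced, in 4 groups. Per the submitters' processing notes, TopHat2 2.0.0, DESeq2 1.6.3 and the builds GRCm38 and mm10 were used; no source used here states the read counter, the annotation or the strand setting. The authors deposited a normalised signal (the normalised counts of the text) for 24062 genes (18503 above 0) in the 4 Twist2 libraries. Divided by the value of 1 read, 100% of its values were whole within 0.01, so reads were recovered. The authors deposited CPM for 4939 genes of both lines, with Twist2 groups as means, and log2 fold changes in the same table, which were not used for results. Values of CPM for single Twist2 libraries were rebuilt from recovered reads and effective sizes of 9710688 to 15643678 reads.

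limma 3.58.1 in R 4.3.3 was fitted with a variance trend on log2 of normalised counts plus 1 (genes with a mean of at least 10, 4 libraries) and on log2 of CPM plus 1 (mean of at least 10 CPM, 6 libraries), each with 2 residual degrees of freedom, adding 4.00 and 5.75 prior degrees. Contrasts with 1 library in each arm or used to choose the family were described by log2 of CPM plus 10. On recovered reads, edgeR 4.0.16 called 5342 genes and DESeq2 1.42.0 called 5296 between Tw2pos and Tw2neg, against 5470 by limma. The fits were also run on simulated counts with the same spread setting for all genes and few changed genes. These libraries differ from that setting, so that run is no check of the calls given here. Promoters came from RefSeq (GRCm38.p6), and transcript lengths and shared stretches from the longest coding GENCODE transcripts. Intervals are exact Poisson at 95% and cover counting error only. Figures and tables used matplotlib 3.10.9, scipy 1.17.1, pandas 2.3.3 and numpy 2.4.6 in Python 3.11.15.

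The members and lists were chosen with earlier results of these data known. Named genes are the 8 members, other p200 loci with a row, and genes from among the 3 nearest by profile for each member, not all of them. From each pathway list they are up to 3 genes of highest mean and the gene with the largest change that passed each way. The alternatives were another pseudocount, level filter, scaling or tool, no trend, a replicate block and each library left out.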

Additional observations from a re-analysis of the deposited data

Results flagged for a closer look

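For 4 members Pax7pos lay below Pax7neg, while both Tw2pos libraries lay above both Tw2neg libraries. The log2 difference of CPM plus 10, Pax7pos minus Pax7neg, was -4.72 for Ifi203, -4.23 for Ifi204, -5.02 for Ifi205 and -4.24 for Mnda. The log2 fold change of normalised counts, Tw2pos over Tw2neg, was 0.42 for Ifi203, 1.30 for Ifi204, 1.56 for Ifi205 and 1.38 for Mnda, and that of Ifi203 did not pass its test. The difference between the lines was not tested, since Pax7pos and Pax7neg have 1 library each. The Tw2pos and Pax7pos levels of Ifi203, Ifi204 and Ifi205 chose the family, which favours this pattern for them. Mnda shares sequence with Ifi205, so its row is not independent of that choice. The pattern is therefore only described. Of 4790 genes, 19.5% showed the same pattern, Tw2pos above Tw2neg with Pax7pos below Pax7neg. Mesenchymal markers moved likewise, summing to 143449 and 163784 CPM in Tw2pos and 37402 and 23111 CPM in Tw2neg, and to 6870 CPM in Pax7pos and 76170 CPM in Pax7neg. Their part in the pattern was not tested.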

How the results depend on the processing

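Ifi204, Ifi205, Aim2 and Pyhin1 kept their direction between Tw2pos and Tw2neg in all 14 alternatives run for each. They kept their call in those that left no library out. The Tw2pos levels of Ifi204 and Ifi205 are among the values that chose the family. The alternatives reuse the same libraries, so they do not remove that choice. The number of genes past the threshold there was 5470; it was 2586 to 7430 with 1 library left out and 2975 in the 6-library fit on CPM, which tests 4790 genes. Scaling to library totals gave 1601 higher and 5289 lower genes with a median log2 fold change of -0.50 over all genes, and quantile normalisation gave 3213 higher and 2339 lower with a median of 0.10. Signs reversed for Ifi202b under edgeR (-0.0029), DESeq2 (-0.0076) and library totals (-0.27), with -0.59 to 0.94 over libraries left out. They also reversed under library totals for Ifi203 (-0.030), Casp4 (-0.44), Ifitm2 (-0.12), Ifitm3 (-0.10) and Tmem173 (-0.25), and under quantile normalisation for Ifitm3 (-0.029). With 1 library left out the range was -0.13 to 0.15 for Casp4 (-0.0060 in another), -0.32 to 0.26 for Irf1 (0.06 in another) and -0.024 to 0.41 for Tmem173. Between Tw2neg and Pax7neg, 11 genes passed: 1 with a pseudocount of 10, 3 with no filter on level, 18 with a mean of at least 50 CPM, 1 under quantile normalisation, 1 with no trend, and 47 to 999 with 1 library left out; Aim2 ran between -0.43 and 0.35. The cause of these changes was not tested. Leaving out a library leaves the spread to the other Twist2 pair. The labels do not say that replicate numbers pair the Twist2 samples; same-numbered deviations correlated at 0.263, and a fit with the number as a replicate block called 6627 genes and called Mndal (adjusted p = 0.0147). edgeR between Tw2neg and Pax7neg was not run. Depth limits Aim2 and Pyhin1 in labelled cells, which rest on 5 to 12 reads.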
